A study of Arabidopsis thaliana with 20 samples.

Results

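RZ-1B and RZ-1C are nuclear glycine-rich proteins of Arabidopsis thaliana with an RNA recognition motif and a zinc knuckle, known for roles in pre-mRNA splicing and in the regulation of genes while they are transcribed. Chromatin-bound RNA is the RNA that stays with washed chromatin after nuclei are broken open. It is rich in transcripts that are still being made or processed, so its level follows transcription and release more closely than the level of mature mRNA does. The comparison below is between chromatin-bound RNA of Col-0, the wild type, and of the double mutant rz-1b rz-1c.

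The comparison used 8 of the 20 samples of the series, chosen by their labels as chromatin-bound RNA, 4 libraries for each genotype. Seedlings of both genotypes were whole plants grown for 10 days on 1/2 Murashige and Skoog medium at 22 °C with 16 h of light and 8 h of dark. In both genotypes rRNA was depleted with Ribozero, remaining polyadenylated RNA was taken out with oligo d(T) beads, and strand-specific libraries were made by the dUTP method, per the labels. The 4 libraries carry 2 replicate numbers, and the deposited tables hold 1 FPKM column (fragments per kilobase of gene, scaled to the fragments of the library) for each number, so n = 2 columns per genotype. The labels give neither the alleles of the mutant nor whether the replicates were separate cultures, so the p-values speak of the spread between these columns, which may be technical. Values below are FPKM after median-of-ratios rescaling, given in the order wild-type replicate 1 and 2, then mutant replicate 1 and 2. A gene was called when limma's Benjamini-Hochberg adjusted p over all genes tested was under 0.05 on the log2(FPKM + 1) scale, and "rose" and "fell" are used of called genes.

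rRNA genes held 53.6% and 60.5% of the deposited FPKM total in the wild-type columns and 31.6% and 34.1% in the mutant columns. Total counts are unknown. Relative to replicate 2 of Col-0, estimated depth was 1.51 in its replicate 1, and 2.80 and 2.98 in the mutant columns. All 279 chloroplast and mitochondrial genes were listed at 0 in every column, so an exact 0 is reported as listed at 0. The 7 leaf mesophyll markers, among them the Rubisco small subunits and a carbonic anhydrase, were all present, with summed levels of 2055 and 1818 FPKM in Col-0 against 1376 and 1668 in the mutant, and none was called. Their directions differed: RBCS1A was at 941 and 771 FPKM against 481 and 659, and LHCB1.1 at 162 and 146 against 223 and 205. The 3 phloem markers had sums of 48.9 and 42.2 FPKM against 22.7 and 31.5, and none was called by limma. Of 9 root markers 7 passed the filter, of which IRT1 was called higher and PRP3 lower. PYK10, the most abundant root marker, was at 377 and 325 FPKM against 308 and 374.

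The test covered 19694 genes whose mean reached 1 FPKM, of which 1338 rose in the mutant (6.79%) and 1540 fell (7.82%), with a median log2 change over all genes of 0.02. Among the called genes, 864 rose and 864 fell by more than 1 on the log2 scale. Some called genes passed the filter through 1 genotype only. The Col-0 mean was under 1 FPKM for 285 of the 1338 rises, and the mutant mean for 166 of the 1540 falls. The replicates of the genotypes did not overlap for any called gene. Such non-overlap was common with 2 columns each. Over all 19694 genes tested, it was seen for 6292 higher and 5918 lower in the mutant, called or not. These calls rest on both mutant columns: without mutant replicate 1 no gene was called (3898 genes had an unadjusted p under 0.05), and without mutant replicate 2, 26 rose (0.133%) and 72 fell (0.368%). Every call described below is therefore lost without mutant replicate 1. With the FPKM as deposited, without rescaling, the median of all genes was 0.27 and 75.7% of calls were rises, against 46.5% after rescaling. The rises and falls were then 13.2% and 4.24% of the genes tested. They were 9.31% and 7.96% without wild-type replicate 1, and 6.19% and 6.01% without wild-type replicate 2. Groups of genes are read against these shares.

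The targeted genes were examined in each column. RZ-1C (AT5G04280) was at 17.2 and 15.5 FPKM in Col-0 against 4.02 and 4.02 in the mutant, a fall of 1.78 on the log2 scale (SE 0.17, limma adjusted p = 0.0028). RZ-1B (AT1G60650) was at 10.8 and 11.1 FPKM in Col-0 against 115 and 135 in the mutant, and so was higher in the columns labelled as the mutant (log2 change 3.39, SE 0.15, limma adjusted p = 0.000883). For RZ-1B mRNA, the authors' deposited table lists 15.2 in Col-0 against 2.299 in the mutant (q = 0.000329), so the mRNA and the chromatin-bound RNA of this gene moved in opposite directions. RZ-1C thus went with the genotype labels in both kinds of RNA, and RZ-1B went with them in mRNA and against them on chromatin. The labels were taken as given, and every direction reported here rests on them: the mutant is the set of columns labelled so. RZ-1A (AT3G26420), the remaining family member, was not called, at 4.15 and 13.0 FPKM against 2.58 and 4.80, and was called lower without wild-type replicate 1.

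More than one step of sulfur uptake and assimilation fell. Plants take up sulfate, activate it, reduce it to sulfide and build cysteine from it, the source of glutathione and of several defence compounds. Of 27 tested members of the list, 16 fell and none rose, with a median log2 change of -0.87. The ATP sulfurylase gene APS3, which activates sulfate, was at 24.6 and 16.3 FPKM in Col-0 against 6.85 and 4.60 in the mutant (log2 change -1.67, SE 0.26, limma adjusted p = 0.0111). Calls were made at uptake, activation and reduction. The high-affinity root transporter SULTR1;2 went from 37.1 and 41.5 FPKM to 17.57 and 18.0, and the adenylyl-sulfate reductase APR1, a rate-limiting enzyme, from 38.9 and 35.6 to 13.5 and 10.2. Sulfite reductase (SIR), which completes the reduction to sulfide, went from 163 and 154 FPKM to 59.6 and 73.5. Of the sulfur starvation markers BGLU28 and LSU1 fell, BGLU28 from 4.30 and 5.77 to 0.797 and 0.728. LSU2, LSU3 and ATSDI1 were not called, and LSU4 did not reach the filter. SULTR1;2, APR1, SIR and LSU1 were named after their values were seen. Without rescaling 11 members fell and none rose.

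Glutathione transferases, which join glutathione to reactive compounds and are induced by many stresses, fell in both large classes. Of 24 tested tau-class genes 13 fell and none rose, with a median log2 change of -1.16. Of 10 tested phi-class genes 5 fell and 1 rose. GSTF7 (AT1G02920) was at 130 and 248 FPKM in Col-0 against 11.9 and 10.8 in the mutant (log2 change -3.87, SE 0.29, limma adjusted p = 0.00168), and GSTF2 went from 179 and 314 to 29.8 and 33.1. The lowest wild-type value of each was several times the highest mutant value. In the tau class GSTU19, one of its most abundant members, went from 188 and 225 FPKM to 48.4 and 54.0, and GSTU4 from 8.38 and 16.1 to 2.28 and 1.63. The phi-class gene that rose was GSTF12 (TT19), which carries anthocyanin pigment to the vacuole, at 2.64 and 2.05 FPKM against 5.21 and 5.77.

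The tryptophan-derived and methionine-derived defence pathways fell in the same columns. Camalexin is the indole phytoalexin of Arabidopsis. The camalexin list also holds genes of an indole cyanogenic pathway and transporters such as ABCG40. Of its 13 tested genes 9 fell and 1 rose, with a median of -1.71. Of the 9, 3 had a mutant mean under 1 FPKM and passed the filter through Col-0. PAD3 (AT3G26830), which makes camalexin in the last step, was at 17.2 and 28.6 FPKM in Col-0 against 1.03 and 1.07 in the mutant (log2 change -3.50, SE 0.26, limma adjusted p = 0.00168). CYP71A12 went from 32.0 and 68.0 FPKM to 0 and 0.303, and CYP82C2, which makes an indole cyanogenic compound, from 27.0 and 53.2 to 0.107 and 0.109. CYP82C4, which stands in this list by family and works in the synthesis of iron-binding coumarins, was the member that rose, from 0 and 0 to 3.09 and 5.02. Of 30 tested glucosinolate genes 12 fell and none rose, with a median of -0.65. IPMI1, of the chain elongation of methionine, went from 5.58 and 6.998 FPKM to 0.580 and 0.422, and CYP83B1, of the indole branch, from 76.7 and 82.3 to 32.7 and 26.9. Among the wider enzyme families, 14 of 51 UDP-glycosyltransferases fell and none rose (9 without wild-type replicate 2), and 30 of 145 cytochromes P450 fell while 10 rose, a family that includes the camalexin enzymes named above.

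Signalling genes of immunity were lower too, though not in every class. Salicylic acid is the main hormone of immunity to biotrophic pathogens. Of 21 tested genes of its synthesis, signalling and response 11 fell and 1 rose. Of the 11, 4 had a mutant mean under 1 FPKM and passed the filter through Col-0. PR1, the common marker of this response, was at 7.87 and 29.7 FPKM in Col-0 but listed at 0 in both mutant columns, and PR5 went from 8.74 and 8.24 to 0.277 and 0.261 (log2 change -2.90, SE 0.22, limma adjusted p = 0.00168). The wild-type columns differed from each other for PR1 more than they did for PR5. Wild-type replicate 2 was also far above replicate 1 for other falls named here, among them GSTF7, CYP71A12, CYP82C2, EARLI1, FRK1 and SAG13. It was not for WAK1, CRK18 and LOX2. Falls that share this gap are not independent of each other, and its part in the calls was not tested. SAG101, a partner of the immune regulator EDS1, rose from 24.9 and 20.5 FPKM to 35.7 and 46.9.

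Cysteine-rich receptor-like kinases are a large family induced by pathogens and oxidative stress. Of 31 tested members 8 fell and none rose, among them CRK13 (13.0 and 17.5 against 1.69 and 2.00) and CRK18 (87.9 and 79.5 against 22.9 and 17.56). Of 10 tested wall-associated kinases, which bind pectin, 4 fell and none rose. WAK1 went from 15.0 and 13.96 FPKM to 0.939 and 1.097. Of 52 tested WRKY factors 12 fell and 2 rose, with WRKY70, which acts in salicylic acid signalling, at 24.0 and 38.2 FPKM against 2.44 and 5.44. By contrast, of 35 pattern recognition receptors and early kinases 4 fell and 3 rose, and of 21 resistance proteins of the NBS-LRR class 2 fell and 1 rose, beside 7.82% and 6.79% of all genes. FRK1, a marker of early flagellin response, was among the falls at 13.6 and 31.8 FPKM against 0.737 and 0.363. Among falls, 3 of 8 cysteine-rich kinases, 2 of 4 wall-associated kinases and 5 of 12 WRKY factors had a mutant mean under 1 FPKM. So did 3 of 4 pattern receptors and early kinases, and such genes passed the filter through Col-0. PEPR1, the receptor of the Pep danger peptides, rose from 55.8 and 46.7 to 131 and 122.8. Of 34 jasmonate genes 2 fell and 1 rose after rescaling, against 2 falls and 5 rises without it. LOX2, which starts jasmonate synthesis in the chloroplast, went from 128 and 97.8 FPKM to 26.8 and 20.3, while LOX3 went from 57.8 and 43.7 to 107 and 127. In the EARLI1 family of lipid-transfer-like genes 3 of 7 fell, with EARLI1 at 42.3 and 107 FPKM against 1.11 and 2.56. A run of 7 neighbouring tested genes that all fell begins with AZI1 and EARLI1. It was the longest run of falls and was looked for after the values were seen.

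**Figure D1:**
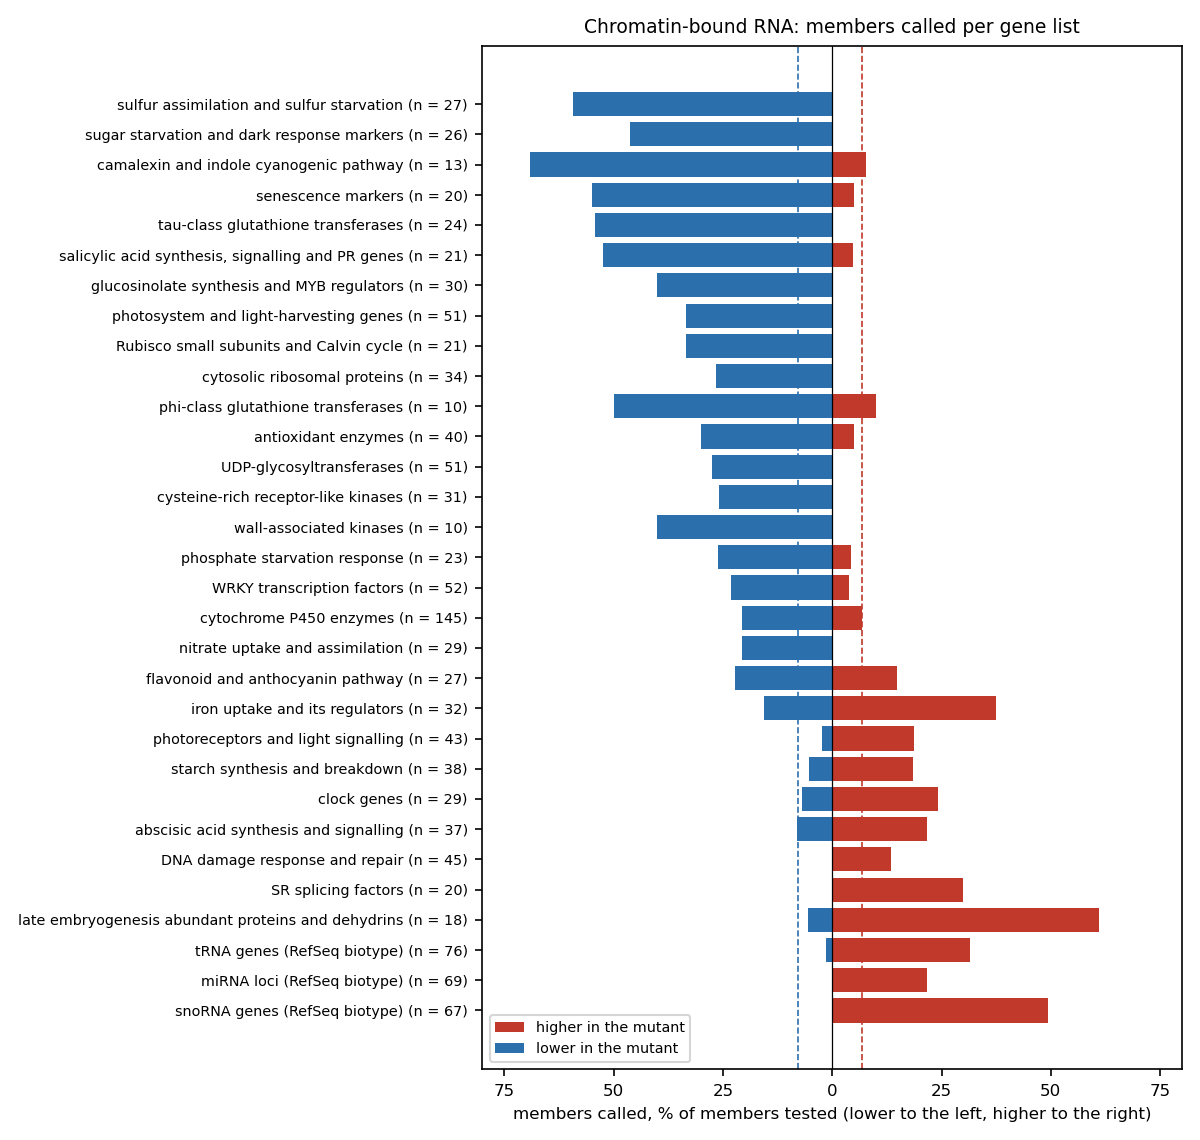
Share of tested members called in selected gene lists and RefSeq biotypes, with falls to the left and rises to the right, in percent of the members tested (n in each label). The dashed lines mark the shares over all genes, 7.82% for falls and 6.79% for rises. The sulfur, camalexin, senescence and tau-class transferase lists reach furthest to the left, and the LEA and snoRNA bars furthest to the right.

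Markers of sugar starvation and of senescence were lower. When carbon is short, or leaves age, plants switch on genes that recover nitrogen and carbon from proteins. Of 26 tested starvation and dark-response markers 12 fell and none rose, and all 26 had a log2 change below 0 (median -0.63). Asparagine synthetase ASN1 (AT3G47340), known as DIN6 for its induction in the dark, was at 26.9 and 31.0 FPKM in Col-0 against 5.65 and 3.00 in the mutant (log2 change -2.54, SE 0.26, limma adjusted p = 0.0036). DIN11 went from 11.3 and 11.8 FPKM to 0.9604 and 0.939. The beta-glucosidase gene DIN2, which stands in the sulfur list too, went from 7.04 and 18.4 to 1.098 and 2.00. Of 20 tested senescence markers 11 fell and 1 rose. Of the 11, 3 had a mutant mean under 1 FPKM and passed the filter through Col-0. SAG13 went from 49.3 and 102 FPKM to 0.541 and 0.692 (log2 change -5.48, SE 0.33, limma adjusted p = 0.00124), and YLS9 from 12.9 and 25.8 to 1.14 and 0.773. The starvation and senescence lists share members such as DIN11, so their counts are not independent.

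Nitrate and phosphate genes showed falls with few rises. Of 29 tested genes of nitrate uptake and assimilation 6 fell and none rose. The dual-affinity transporter NRT1.1 was at 45.8 and 64.1 FPKM against 20.195 and 23.3. Without rescaling 3 of this list fell and 2 rose. Of 23 tested phosphate starvation genes 6 fell, among them the transporter PHT1;4 (11.0 and 13.998 against 3.55 and 3.96) and the phosphate sensor SPX1 (5.43 and 14.5 against 2.07 and 1.18). GPT2, the glucose-phosphate translocator of the plastid that is induced by sugar, rose from 3.54 and 5.48 to 15.0 and 12.8.

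Some genes of iron uptake, and several of its regulators and other iron genes, rose. Arabidopsis roots acidify the soil, reduce ferric iron at the cell surface with FRO2 and import ferrous iron with IRT1, under a group of bHLH transcription factors. Of 32 tested iron genes 12 rose and 5 fell. FRO2 (AT1G01580) was at 0.153 and 0 FPKM in Col-0 against 12.8 and 19.1 in the mutant (log2 change 3.96, SE 0.26, limma adjusted p = 0.00132), and IRT1 (AT4G19690) at 0.251 and 0 against 8.59 and 13.8 (log2 change 3.41, SE 0.29, limma adjusted p = 0.00225). Both were near 0 in both wild-type columns and well above it in both mutant columns. Other members of the list, among them IRT2, HA2 and NRAMP1, were not called. Some of the regulators rose and others did not. BHLH100 went from 1.44 and 1.32 FPKM to 18.1 and 10.7, and bHLH38, bHLH39, BHLH101 and PYE, which were named after their values were seen, were called higher as well. ILR3 was not called (18.4 and 23.7 FPKM against 17.7 and 18.9), and FRU (FIT), which activates IRT1 and FRO2, did not reach the 1 FPKM filter (1.43 and 0.813 against 1.03 and 0.599). Of the 12 genes that rose, 6 had a Col-0 mean under 1 FPKM and so passed the filter through the mutant. The falls were FRO6, F6'H1, ABCG37, YSL1 and YSL3. FRO6, a ferric reductase of the shoot, went from 19.6 and 9.55 to 3.44 and 4.87. F6'H1, the enzyme that makes coumarins for iron mobilisation, went from 5.95 and 16.2 to 1.39 and 2.25, and ABCG37, which exports them, from 35.01 and 54.1 to 19.4 and 22.2. CYP82C4 of the same coumarin pathway was among the rises, at 0 and 0 against 3.09 and 5.02. In the fit without wild-type replicate 2, 12 rose and 3 fell. In the authors' deposited table IRT1 mRNA was 8.71 in Col-0 against 2.47 in the mutant (q = 0.00062), and FRO2 mRNA was 1.57 and 1.93 (q = 0.423). Most of the other rises went the same way in mRNA. FRO3, NAS4, FER2, BTS, PYE, bHLH38, bHLH39 and BHLH101 had higher mRNA in the mutant at q under 0.05. CYP82C4 had lower mRNA (q = 0.0189), and BHLH100 had a q of 0.209. Of 25 tested root hair genes none rose and 4 fell (1 and 3 without rescaling), among them PRP3 at 5.95 and 6.76 FPKM against 2.34 and 2.42.

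Many of the tested LEA genes rose, and genes of dehydration response went both ways. LEA proteins and dehydrins protect cells as they dry, and most are made only in maturing seeds under ABI3 and ABI5. Of 18 tested members (21 listed) 11 rose and 1 fell. Of the 11, 7 had a Col-0 mean under 1 FPKM and passed the filter through the mutant, so the count describes the tested members alone. ECP63 (AT2G36640) was at 0.232 and 0 FPKM in Col-0 against 12.1 and 11.5 in the mutant (log2 change 3.53, SE 0.23, limma adjusted p = 0.00132), and M17 at 0.936 and 1.77 against 20.4 and 28.6. The seed peroxiredoxin PER1 went from 0.467 and 0 to 18.6 and 19.6, and TIP3;1, an aquaporin of seed storage vacuoles, from 1.15 and 0.682 to 5.75 and 9.04. Among seed storage and oil-body genes, CRA1, CRU3, OLEO1 and OLEO2 rose. CRU2, SESA1 to SESA5, OLEO3, OLEO4 and ATS1 did not reach the filter. SESA5 was at 1.11 and 0.341 FPKM in Col-0 against 0.102 and 0.103 in the mutant. HIRD11, a dehydrin of vegetative tissue, was the LEA list member that fell, from 28.1 and 41.5 to 19.2 and 11.8. Of 23 tested dehydration and cold response genes 3 rose (LTI65, RD22 and KIN1) and 3 fell (NAC019, NAC3 and ERD1). LTI65 was listed at 0 in both wild-type columns and at 19.7 and 19.9 in the mutant, whereas ERD1, a chloroplast Clp protease subunit, was at 125 and 170 against 44.6 and 45.1.

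Of 37 tested genes of abscisic acid synthesis and signalling 8 rose and 3 fell (5 and 0 without wild-type replicate 2). Of the 8, 4 had a Col-0 mean under 1 FPKM and passed the filter through the mutant. ABI5 went from 1.35 and 2.03 FPKM to 10.8 and 13.0 (log2 change 2.26, SE 0.22, limma adjusted p = 0.00319). The falls were PYL7, PYL5 and ABA2, 2 hormone receptors and a synthesis enzyme, with PYL7 at 11.9 and 15.6 FPKM against 7.04 and 4.45. Of 8 embryo and seed markers 5 passed the filter, and all 5 rose. Each of the 5 had a Col-0 mean under 1 FPKM and so passed through the mutant. ABI3, which is among them, stands in the abscisic acid list too. The summed level of the 8 markers was 4.38 and 1.61 FPKM in Col-0 against 63.0 and 94.1 in the mutant. LEC1, which marks the embryo, was listed at 0 in every column. Their part in these results was not tested. In bulk tissue, more cells of one type and more RNA per cell cannot be told apart.

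The lipid-to-sugar route did not rise as a whole. The 2 enzymes specific to the glyoxylate cycle, ICL and MLS, rose, ICL from 17.8 and 26.7 FPKM to 248 and 392.3. Of the 15 tested genes of the cycle and of gluconeogenesis 5 fell. CSY2, a peroxisomal citrate synthase, was at 21.3 and 22.2 FPKM against 10.1 and 9.83. CSY3, another citrate synthase of the list, was not called (14.5 and 18.5 FPKM against 16.7 and 19.7). PPDK, which makes phosphoenolpyruvate, was at 70.1 and 126 against 40.9 and 42.7. Of 17 beta-oxidation genes the thiolase PKT3 fell (119 and 152 against 71.0 and 86.9) and none rose, and without rescaling none was called. Of these 17 genes, 9 had higher mRNA in the mutant at q under 0.05 in the authors' deposited table and none had lower.

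**Figure D2:**
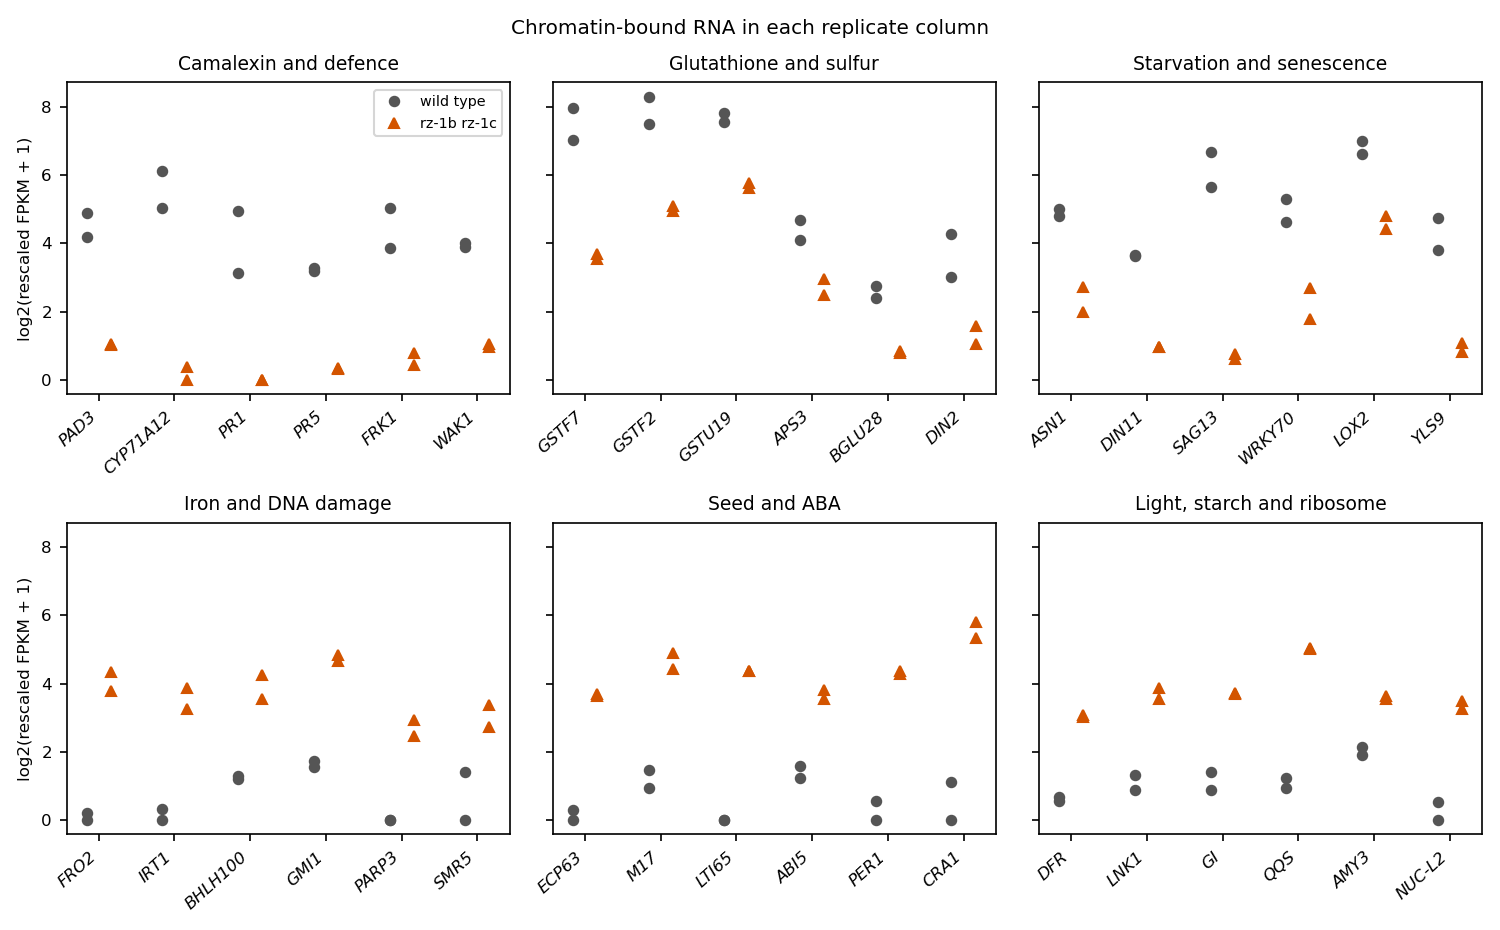
Chromatin-bound level of selected genes as log2(rescaled FPKM + 1), with 1 point for each replicate column (circles for the wild type, triangles for the mutant). In the upper row, of defence, sulfur and starvation genes, both mutant columns lie below both wild-type columns, as for PAD3 at 1.03 and 1.07 FPKM against 17.2 and 28.6, and in the lower row both lie above.

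Some genes of the DNA damage response rose. Double-strand breaks activate the kinase ATM and the transcription factor SOG1, which switch on repair and cell-cycle arrest genes. Of 45 tested members 6 rose and none fell. Of the 6, 2 (PARP3 and SMR5) had a Col-0 mean under 1 FPKM and passed the filter through the mutant. GMI1 (AT5G24280), an early target that acts in homologous recombination, was at 2.33 and 1.95 FPKM in Col-0 against 24.4 and 27.6 in the mutant (log2 change 3.103, SE 0.18, limma adjusted p = 0.00123). PARP3 was listed at 0 in both wild-type columns and at 4.56 and 6.62 in the mutant, and SMR5, an inhibitor of cyclin-dependent kinases, was at 0 and 1.69 against 9.46 and 5.65. The others were PARP2, BRCA1 and XRI1, with PARP2 at 2.52 and 3.05 FPKM against 10.3 and 9.28. PARP3 is known to be active in seeds, and the seed marker sums given above differ between the same columns; their part in its rise was not tested. Of the 6 genes, 5 had higher mRNA in the mutant at q under 0.05 in the authors' deposited table. Of 66 tested cell division genes 2 fell and 1 rose (none and 4 without rescaling).

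Genes of light signalling, the clock and starch rose in part. Of 43 tested photoreceptor and light signalling genes 8 rose and 1 fell. FAR1, a transcription factor that acts with phytochrome A, went from 5.86 and 7.08 FPKM to 20.6 and 18.1, and PIF5 (listed as PIL6), which promotes elongation growth, from 13.9 and 24.3 to 47.3 and 45.8. PIF4 was listed at 0 in both wild-type columns and at 7.78 and 5.50 in the mutant. Its mRNA in the authors' deposited table was 98.6 in Col-0 against 64.1 in the mutant, and an exact 0 in such tables can be a failed estimate. It was 1 of 69 genes called higher with both wild-type columns at 0, of which 3 had a wild-type mRNA value of at least 10. CRY2, a blue light receptor, fell from 45.5 and 47.8 FPKM to 32.6 and 28.3.

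Of 29 clock genes 7 rose and 2 fell. LNK1, a transcriptional coactivator of the clock, went from 0.850 and 1.52 FPKM to 13.8 and 10.7. RVE2 was the more abundant of the falls, from 307 and 247 to 143 and 139. Of 38 starch genes 7 rose and 2 fell (4 and 0 without wild-type replicate 2). QQS (AT3G30720), an Arabidopsis-specific gene that alters starch content and is known for natural epigenetic silencing, was at 0.942 and 1.36 FPKM against 31.7 and 31.6 (log2 change 3.93, SE 0.18, limma adjusted p = 0.000883). AMY3, a plastid alpha-amylase, went from 2.74 and 3.41 to 10.7 and 11.5, while the beta-amylase CT-BMY fell from 141 and 170 to 99.8 and 81.6.

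In the phenylpropanoid pathway some genes of the entry fell and some of the anthocyanin end rose. The pathway runs from phenylalanine through a common entry to flavonoids, anthocyanins and lignin. Of 27 tested flavonoid and entry genes 4 rose and 6 fell. The rest were not called, among them TT4, F3H and FLS1 of the flavonoid steps and UF3GT and AT5MAT of the anthocyanin end. At the entry, C4H went from 131 and 188 FPKM to 40.05 and 44.5 (log2 change -1.87, SE 0.20, limma adjusted p = 0.00437), PAL1 from 63.2 and 100.4 to 24.9 and 27.8, and PAL2 from 54.3 and 68.5 to 20.0 and 22.2. At the anthocyanin end, DFR was at 0.605 and 0.469 FPKM in Col-0 against 7.09 and 7.52 in the mutant (log2 change 2.43, SE 0.22, limma adjusted p = 0.00263), and LDOX at 1.54 and 0.758 against 3.57 and 4.29. TT7, which adds the hydroxyl group that turns kaempferol-type into quercetin-type flavonoids, went from 2.77 and 1.29 to 8.14 and 10.1. On the lignin side the cinnamyl alcohol dehydrogenase CAD5 was at 24.4 and 37.3 FPKM against 9.13 and 8.63, and 6 of 27 cellulose, lignin and secondary wall genes fell and 1 rose.

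Photosynthesis and ribosome genes had many small falls that depended on scale and replicate. Of 51 photosystem and light-harvesting genes 17 fell and none rose (7 fell without wild-type replicate 1, 8 without wild-type replicate 2, and 3 rose and 3 fell without rescaling). PSBR, of photosystem II, was at 268 and 214 FPKM against 111 and 114. The mesophyll marker sums given above were lower in both mutant columns, though LHCB1.1 and LHCB2.1 were not, and their part in these counts was not tested. Of 21 Calvin cycle genes 7 fell and none rose, and 1 fell without rescaling. CP12-2, which binds and inhibits Calvin cycle enzymes in the dark, was at 27.1 and 27.4 FPKM against 9.13 and 12.4. Of 34 cytosolic ribosomal protein genes 9 fell and none rose, with a median of -0.38, and again 1 fell without rescaling. SAG24, a ribosomal protein L10 gene, was at 145 and 163 FPKM against 58.7 and 63.0. Of these 34 genes, 15 had higher mRNA in the mutant at q under 0.05 in the authors' deposited table and 1 had lower. Of 14 housekeeping genes none was called by limma in any of the fits, and their median was -0.26.

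Of 17 tested ribosome biogenesis factors 1 rose and none fell, a share below the 6.79% of all genes. The median log2 change was 0.31, against 0.02 over all genes. The gene that rose was NUC-L2 (AT3G18610), the less expressed of the paired nucleolin genes of Arabidopsis, which binds rRNA gene chromatin. It was at 0.457 and 0 FPKM in Col-0 against 10.2 and 8.51 in the mutant (log2 change 3.09, SE 0.28, limma adjusted p = 0.00239). Its Col-0 mean was under 1 FPKM, so it passed the filter through the mutant. In the authors' deposited table its mRNA was 0.944 in Col-0 against 13.4 in the mutant (q = 0.000329). The 4 rRNA genes tested were not called by limma in the main comparison, with a median log2 change of -1.42, and they stand for repeats whose copies share reads.

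Most lists of chromatin and RNA machinery had few calls, whereas SR splicing factors had 6 rises among 20 tested. Of 28 genes of DNA methylation and silencing 1 rose and 1 fell. DML1 (ROS1, AT2G36490), the main DNA demethylase of vegetative tissue, fell from 8.40 and 9.43 FPKM to 1.66 and 1.93 (log2 change -1.83, SE 0.20, limma adjusted p = 0.00431). SUVH2, which helps recruit RNA polymerase V to methylated DNA, went from 3.81 and 2.71 to 6.89 and 6.49. Of 29 small RNA genes AGO3 and AGO6 rose, and of 38 Polycomb and Trithorax genes 1 fell and none rose. Of 20 SR splicing factors 6 rose and none fell (2 rose without wild-type replicate 1 and 2 without wild-type replicate 2), and 18 had a log2 change above 0. SR45a, which responds to stress, went from 21.5 and 25.4 FPKM to 48.5 and 45.7. Of 37 other spliceosome genes 3 rose and 1 fell, of 39 RNA polymerase II and elongation genes 1 rose, and of 20 cleavage and polyadenylation genes 2 rose. Those 2 were FCA and FPA, which also act in flowering time, with FCA at 29.6 and 22.9 FPKM against 46.4 and 55.9. Of 30 tested flowering time genes 4 rose and 1 fell. The rises were FCA, FPA, FLK and the floral repressor SNZ, at 4.55 and 1.67 FPKM against 15.8 and 11.9. The fall was another floral repressor, SVP, from 12.4 and 14.3 to 4.03 and 4.89. None of 23 RNA decay factors was called by limma with or without rescaling, and 1 fell in the fit with a replicate block. The deadenylase gene CAF1a was at 121 and 96.1 FPKM against 117 and 235.

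Several classes of short and non-coding RNA genes had more rises than falls among their tested members. snoRNAs guide chemical modification of rRNA. Of 67 tested snoRNA genes 33 rose and none fell, with a median log2 change of 1.14 against 0.01 for protein-coding genes. For AT2G35742 the level was 2.19 and 0.770 FPKM in Col-0 against 16.2 and 17.05 in the mutant (log2 change 2.89, SE 0.30, limma adjusted p = 0.00358). Of 76 tested tRNA genes (623 listed) 24 rose and 1 fell, and of 69 tested miRNA loci 15 rose and none fell. Of the tRNA genes that rose, 7 had a Col-0 mean under 1 FPKM, as did 1 of the miRNA loci and none of the snoRNA genes, and such genes passed the filter through the mutant. The mutant columns were also the deeper ones, as given above, and the part of depth in these counts was not tested. Without wild-type replicate 1 the rises were 39 for tRNA genes and 33 for miRNA loci. MIR166a, whose product limits class III HD-ZIP factors, was at 5.77 and 1.89 FPKM against 18.21 and 19.3, and MIR157c at 2.15 and 1.64 against 15.4 and 8.62. Of 154 lncRNA genes 24 rose and none fell. Among the 24, 8 had a Col-0 mean under 1 FPKM and passed the filter through the mutant. None of 11 snRNA genes was called by limma in the main comparison, and U4.2 was at 287 and 407 FPKM against 435 and 474. The median span of a snoRNA gene was 84 bases, and the values of such short genes depend on how fragments are assigned to them. The nuclei buffers contained yeast tRNA, per the labels, and its part in the tRNA values was not tested.

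Genes annotated as pseudogenes, a class in which RefSeq places many transposon-derived genes, rose more often than they fell. Of 193 tested (3911 listed) 59 rose and 13 fell, and of 162 transcribed pseudogenes 33 rose and 9 fell. Members passed the filter partly through the genotype in which they were high, so these counts describe the tested members alone. AT1G20390 was at 8.54 and 19.8 FPKM in Col-0 against 172 and 137 in the mutant. AT2G06890 was at 0.0441 and 0 against 7.50 and 7.47. Copies of repeated elements share reads, so values of single members are uncertain. A run of 6 neighbouring tested genes that fell holds the pseudogenes AT2G11280, AT2G11290 and AT2G11300, the last at 2.39 and 4.18 FPKM against 0.495 and 0.167. The longest run in either direction was of 9 neighbouring tested genes that rose, from AT2G07734 to AT2G07775.

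**Figure D3:**
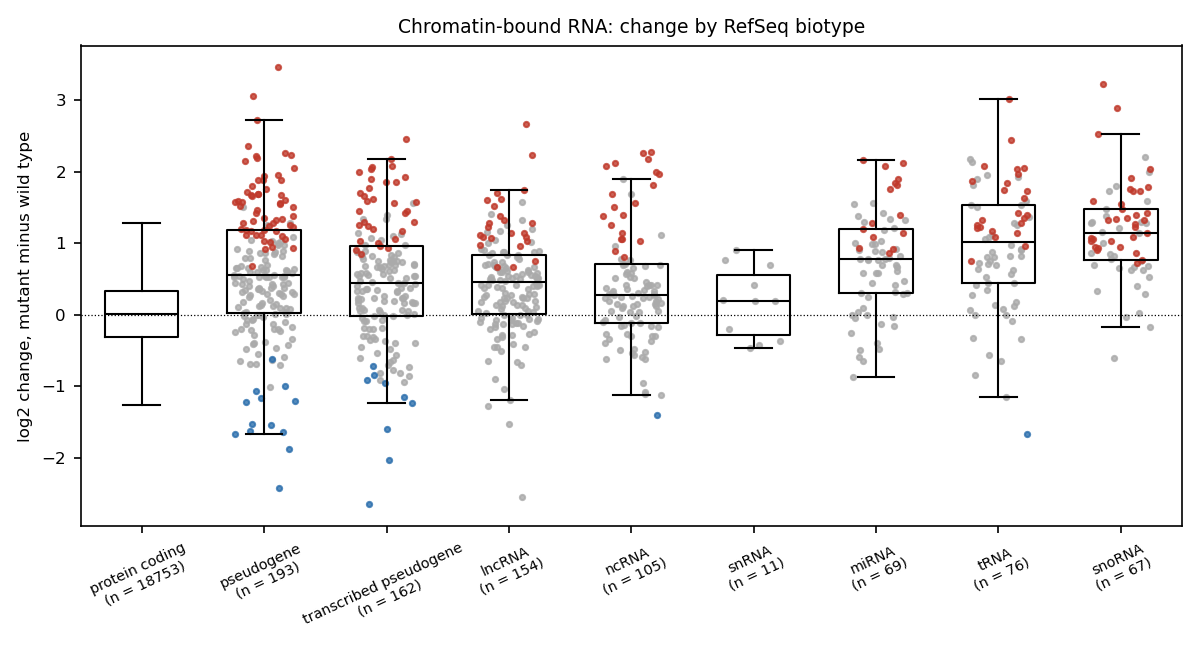
Log2 change of chromatin-bound RNA, mutant minus wild type, by RefSeq biotype. Boxes span the quartiles with the median as a line and whiskers to 1.5 times the box, and points are single genes (red rose, blue fell, grey not called; no points for protein-coding genes). The medians are 0.01 for protein-coding genes, 0.78 for miRNA loci, 1.01 for tRNA genes and 1.14 for snoRNA genes.

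Among protein-coding genes, falls were more frequent among short and among abundant genes. Split into 5 equal groups by gene length, 11.7% of the shortest group and 4.61% of the longest fell, while the rises were at 6.98% and 6.19%. Split by mean level, 4.35% of the lowest group and 14.3% of the highest fell, and 6.98% and 6.11% rose. These are descriptions over genes, which are not independent replicates. The number of exons was not analysed here.

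Most hormone and growth lists had few calls. Of 64 auxin genes 8 fell and 1 rose, with GH3.3, which conjugates auxin, at 16.9 and 35.7 FPKM against 4.89 and 4.11. Of 48 ethylene genes 5 fell and none rose (3 fell and 5 rose without rescaling), with the synthesis gene ACS2 at 4.02 and 5.86 against 0.933 and 0.798. Of 39 cytokinin genes 4 rose and 1 fell, and CKX1, which breaks cytokinin down, went from 2.56 and 1.58 to 8.93 and 10.9. Of 28 brassinosteroid genes 3 fell, and of 21 gibberellin genes 3 rose and 1 fell. Of 34 SAUR genes 3 rose and 2 fell. Of 51 expansins and xyloglucan enzymes 3 rose and 4 fell, with XTH31 at 5.17 and 1.75 FPKM against 17.8 and 21.9. Of 28 aquaporins 6 fell and 2 rose (2 and 3 without rescaling), and of 24 histone genes 5 fell and 1 rose. Of 42 meristem and leaf shape genes BOP1, AFO and KNAT1 rose and none fell, KNAT1 (BREVIPEDICELLUS) from 2.46 and 3.39 to 5.76 and 6.14. Of 28 stomatal genes 6 fell and 1 rose, with the guard cell exchanger CHX20 at 12.6 and 16.0 against 4.38 and 5.45, while none of the 5 guard cell markers was called by limma.

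Antioxidant genes fell more often than they rose, with a split that depended on scale. Of 40 antioxidant genes 12 fell and 2 rose (6 and 4 without wild-type replicate 2, 3 and 3 without rescaling). Of 17 tested mitochondrial stress genes 4 fell and 2 rose. Both antioxidant rises and 1 of the 2 mitochondrial stress rises had a Col-0 mean under 1 FPKM. These genes passed the filter through the mutant. The alternative oxidases divert electrons in the mitochondrion. AOX1D (AT1G32350) went from 15.6 and 30.3 FPKM to 0.126 and 0.469 (log2 change -4.15, SE 0.33, limma adjusted p = 0.00192), and AOX2, known from seeds, from 0 and 0 to 3.00 and 3.31. The chloroplast superoxide dismutase FSD1 was at 166 and 167 FPKM against 67.5 and 88.3. Of 27 heat shock genes HSF4 fell and none rose. Of 24 genes of endoplasmic reticulum stress NAC103, an unfolded protein response factor, rose from 1.09 and 1.53 to 6.58 and 8.35, and PDIL1-1 and PDIL1-2 fell.

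The called genes were set beside the authors' deposited mRNA values, which come from other libraries of the same genotypes and give 1 value per genotype. Over the genes tested in both, the authors' deposited table has 16.6% higher and 15.4% lower in mutant mRNA at q under 0.05. Of 1335 genes that rose on chromatin, 587 were higher (43.97%) and 53 lower (3.97%) in mRNA in the authors' deposited table. Of 1538 genes that fell on chromatin, 463 were lower (30.1%) and 307 higher (19.96%). Lists differed in this respect. Of the 11 LEA genes that rose, 9 were higher in mRNA in the authors' deposited table and none was lower. Of the 9 genes of the camalexin list that fell, 7 were higher in mRNA and 1 was lower. Of the 13 tau-class transferases that fell, 7 were higher and 3 lower, and of the 16 sulfur genes that fell, 6 were higher and 3 lower. CYP71A12 mRNA is 0.870 in Col-0 against 115.9 in the mutant in the authors' deposited table (q = 0.000329), beside the chromatin-bound fall given above. Whether lists differ in this share was not tested, nor was whether the labels of the mRNA and chromatin tables match, on which these opposite directions rest.

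**Figure D4:**
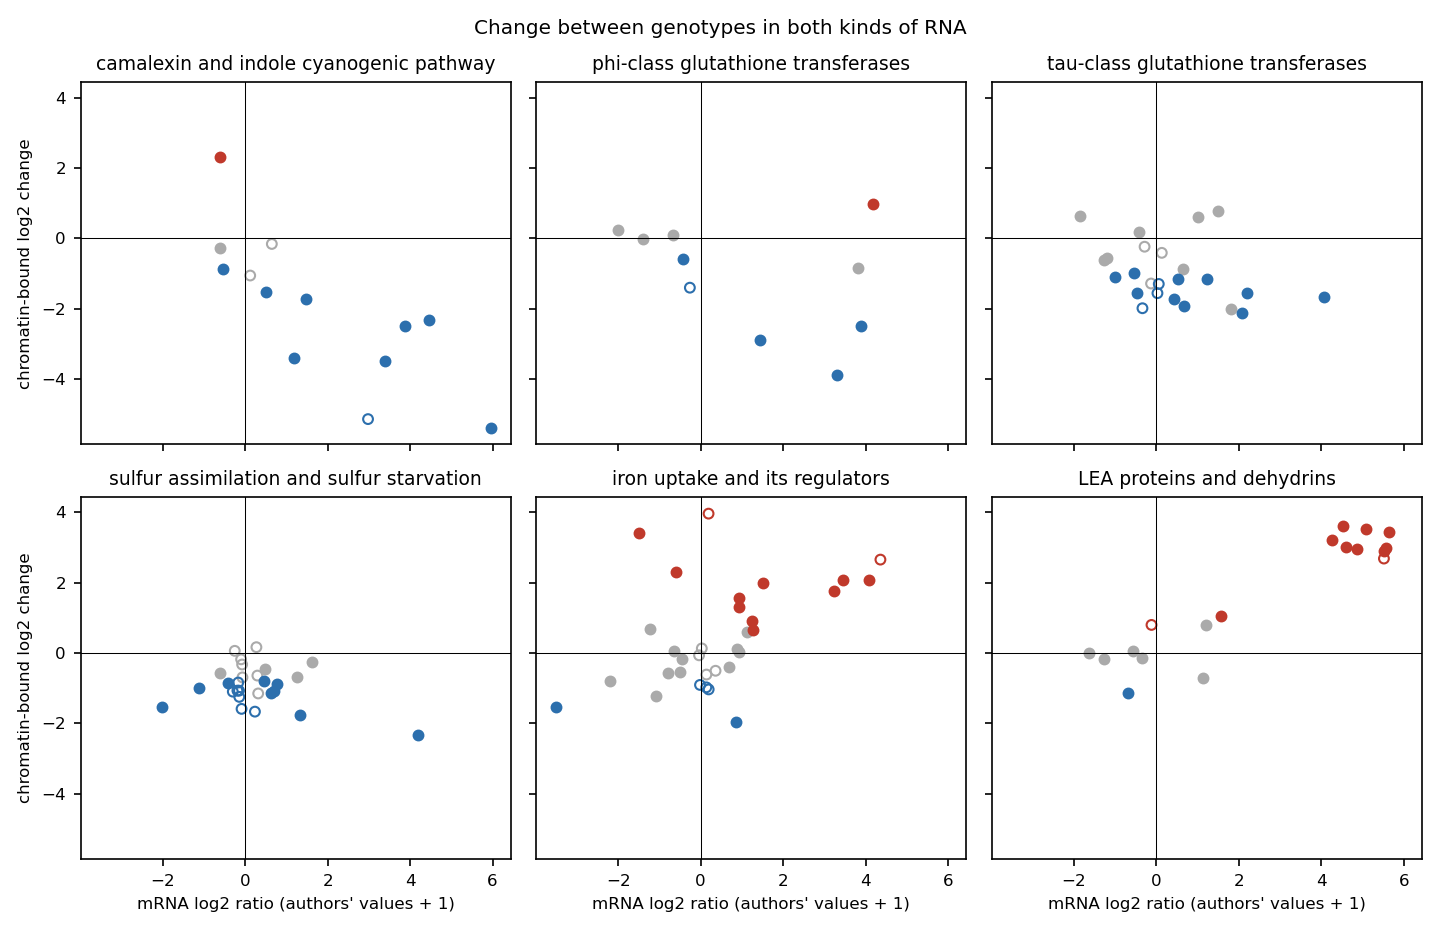
Log2 change of chromatin-bound RNA (vertical axis) against the log2 ratio of the authors' deposited mRNA values, each with 1 added (horizontal axis), for the tested members of 6 lists. Red points rose and blue points fell on chromatin, grey points were not called, and filled points have an authors' q under 0.05. Of the 9 genes of the camalexin list that fell, 7 had higher mRNA in the mutant at a q under 0.05. These lie to the right as filled points. Of the 11 LEA genes that rose, 9 lie at the upper right with a q under 0.05.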

How the data were processed

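Chromatin-bound RNA of 2 genotypes was analysed from FPKM tables that the authors deposited, 1 per genotype with 1 column per replicate number. The labels give 2 libraries per number, and no label or header says how these were combined. The submitters' processing notes name Cuffdiff 2.2.1, Cufflinks, TopHat2 2.1.1, StringTie 1.3.4d, HISAT2 2.0.5 and the TAIR10 build without saying what each was used for, and whether counting used strand is not stated. A duplicate of mutant replicate 2 was the 1 column not used. For mRNA the authors deposited a q-value and 1 expression value for each genotype, of unstated unit, and both were only copied.

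Columns were divided by median-of-ratios factors (0.969, 0.849, 1.14 and 1.06) over the 20451 genes above 0 in every column. Differences were tested on log2(FPKM + 1) with limma 3.58.1 (R 4.3.3, trended variance), keeping 19694 genes by a minimum mean of 1 FPKM. P-values were Benjamini-Hochberg adjusted over all of them, and the script was tested on simulated data. Fold changes on this scale understate low genes, and an exact permutation test of 2 against 2 columns cannot go below p = 0.333. Depth relative to wild-type replicate 2 is the modal ratio between columns of values under 1 FPKM, with 3.57% to 8.68% of genes within 0.01 (natural log) of the mode, so it is a rough estimate.

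The 71 gene lists (2512 genes, 1978 tested, some in several lists) and the members described were chosen with earlier results of these data known, so lists are given as counts and medians with no test. Named genes are the RZ-1 family and, from each list or biotype, up to 3 called genes per direction with the largest log2 change, where replicates do not overlap and the higher genotype reaches 3 FPKM, or the 2 most abundant genes where none was called. Other genes were named after their values were seen. Names and biotypes are from RefSeq TAIR10.1, which matched 32823 of 33602 identifiers. Coordinates are not printed. Promoter motifs and exon number, though planned, were not analysed here. The alternatives were 3 other scalings, another pseudocount, 2 other filters, no variance trend, each column left out and a replicate block.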

Additional observations from a re-analysis of the deposited data

Results flagged for a closer look

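The change between genotypes differed in direction between chromatin-bound RNA and mRNA for 2 groups of genes: 53 genes rose on chromatin and were lower in mRNA by the authors' q, and 307 fell on chromatin and were higher in mRNA. The difference itself was not tested, since the mRNA table has 1 value per genotype. The genes named here have the widest gap between the 2 changes among those with at least 3 FPKM in both kinds of RNA. In the first group, beside RZ-1B, IRT1 and PIF4, AT2G17660 was at 3.41 and 2.59 FPKM in Col-0 against 12.2 and 7.31 in the mutant on chromatin, and at 11.2 and 2.02 in the authors' deposited mRNA table (q = 0.000894). In the second group AT1G26380, a berberine bridge enzyme gene induced by pathogens, was at 17.9 and 33.9 against 0.799 and 0.996 on chromatin and at 0.328 and 33.4 in the authors' deposited table (q = 0.000329). AT4G12490, in the EARLI1 neighbourhood, was at 61.9 and 146 against 0.106 and 0.109 on chromatin and at 1.47 and 24.2 in the authors' deposited table (q = 0.000329).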

How the results depend on the processing

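The calls of 1338 rises and 1540 falls depended most on the mutant columns: leaving out 1 column at a time gave 0 to 1838 rises and 0 to 1571 falls, with 0 and 0 without mutant replicate 1 and 26 and 72 without mutant replicate 2. In those fits the lone mutant sample is assumed to vary like the wild type. Without rescaling 2595 rose and 835 fell. With no filter on low values 874 rose and 728 fell of 25572 genes. The other scalings, the 0.1 pseudocount, the 5 FPKM filter and no intensity trend gave between 991 and 1445 rises and between 1208 and 1703 falls. The cause of these shifts was not tested. The replicate numbers of the genotypes did not pair the columns, since deviations of same-numbered columns correlated by 0.0147 across genes, and with the replicate block 1390 rose and 1573 fell. No named gene changed direction under the other scalings, pseudocount or filters, without the trend or with the block. Of the called named genes, 39 lost the call without rescaling, 110 without the filter and 53 without wild-type replicate 2. Depth was lowest in wild-type replicate 2, which limits low genes, and 2 columns per genotype limit every call.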
